A study of Homo sapiens with 18 samples.

Results

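Genes annotated as long intergenic non-coding RNAs (LINC genes) were followed in MDA-MB-231 cells, a basal, mesenchymal-like human breast adenocarcinoma line. A row of the count table was taken as a LINC gene when its gene identifier maps to a symbol made of LINC and digits, with or without a suffix. This rule used no measured value, and it found 2274 of the 60603 rows. The cells carried a pInducer20 lentiviral cassette for either Flag-ZMYND8 or GFP, introduced stably under neomycin/G418 selection, and 250 ng/mL doxycycline was given in all 6 conditions. Doxorubicin at 0.6 µM, a DNA-damaging anthracycline used in chemotherapy, was added 4 h after induction for 6 or 48 h, or not added (0 h). Polyadenylated RNA of 2 biological replicates was sequenced per condition, which gives 12 libraries named below as GFP or ZMYND8 cells at 0, 6 or 48 h. Each construct was represented by 1 selected line, so an effect of ZMYND8 and any other difference between the lines cannot be told apart. Replicates are not described further, and p-values therefore measure the spread between these libraries.

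LINC genes are transcribed from their own promoters between protein-coding genes, and most are spliced and polyadenylated like messenger RNAs while carrying no long open reading frame. They are known for low levels, for expression restricted to few cell types, and for roles that range from scaffolding of chromatin complexes to regulation of a neighbouring gene. For most of them no function is established, and several were first described as markers of a tumour type. ZMYND8 is a chromatin reader that binds modified histones and works with histone demethylases and other corepressors.

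The 2274 rows carried 2262 different symbols, and 2245 of them had the biotype lncRNA. Of the other 29, 23 were annotated as pseudogenes and 3 as protein-coding. The median LINC gene had 1916 exonic bases in 4 separate exon blocks. Exons of 1752 rows overlapped no other gene, those of 429 rows overlapped a gene on the other strand, and those of 129 rows overlapped a gene on the same strand. Read pairs that fall on exons of more than 1 gene of the same strand were not assigned by the counting, so levels of the last group are uncertain. LINC00941, whose exons overlap another gene on the same strand, had 0 counts in all 12 libraries.

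The counting used strand, although the library kit named in the labels is not described as strand-specific. LINC01764 shows how far strands were separated. It was the only LINC gene with at least 50% of its exonic bases inside exons of an opposite-strand gene at 20 CPM (counts per 1000000, scaled by TMM) or more. The partner was UCA1, a long non-coding RNA first described in urothelial cancer, whose exons hold 72.6% of those bases. UCA1 had 56 and 28 counts in GFP cells at 0 h and 6526 and 5610 in ZMYND8 cells at 48 h. LINC01764 had 0 and 1 counts in the former and 60 and 90 in the latter. Its counts per exonic base were 7.72% of those of UCA1 over all libraries. Counts of LINC01764 were 1.19%, 5.85% and 2.29% of those of UCA1 in GFP cells at 0, 6 and 48 h. In ZMYND8 cells they were 1.15%, 0.906% and 1.24%. How many counts of LINC01764 are UCA1 read pairs placed on the wrong strand was not tested.

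Promoter sequences of 6 LINC genes are shown because the results below turn on them. LINC02915 and LINC02241 were among the genes that differed most between the lines, LINC01476 was detected at 48 h alone, LINC01426 rose in both lines, LINC02970 fell in both, and LINC00261 moved in opposite directions. Each runs from 250 bases before to 50 bases after the transcription start in RefSeq on GRCh38.p14, written 5′ to 3′ on the gene's strand. Capitals mark matches on either strand to any of 6 motifs, which share no bases in these windows. The core promoter element called the TATA box was searched as TATAAA. The pentamer bound by the factor NF-Y was searched as CCAAT. The site of Jun and Fos dimers (AP-1) was searched as TGANTCA. The cyclic AMP response element (CRE) was searched as TGACGTCA. The palindrome of Myc-like factors (E-box) was searched as CACGTG. The element bound by Sp factors (GC box) was searched as GGGCGG. The windows are chr15:39250419-39250718 (+) for LINC02915, chr5:20611590-20611889 (+) for LINC02241, chr17:59526808-59527107 (−) for LINC01476, chr21:34745575-34745874 (+) for LINC01426, chr20:62603392-62603691 (−) for LINC02970 and chr20:22578593-22578892 (−) for LINC00261.
LINC02915: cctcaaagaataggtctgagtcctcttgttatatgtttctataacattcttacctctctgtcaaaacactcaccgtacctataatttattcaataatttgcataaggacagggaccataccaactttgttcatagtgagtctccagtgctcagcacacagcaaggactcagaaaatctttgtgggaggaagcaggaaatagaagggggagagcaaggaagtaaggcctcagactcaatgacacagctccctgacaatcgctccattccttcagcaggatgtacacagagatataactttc
LINC02241: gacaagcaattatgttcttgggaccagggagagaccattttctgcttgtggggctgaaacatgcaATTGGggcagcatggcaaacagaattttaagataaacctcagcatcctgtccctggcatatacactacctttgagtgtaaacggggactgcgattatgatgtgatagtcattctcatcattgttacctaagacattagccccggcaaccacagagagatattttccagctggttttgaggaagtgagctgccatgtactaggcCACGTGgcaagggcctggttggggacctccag
LINC01476: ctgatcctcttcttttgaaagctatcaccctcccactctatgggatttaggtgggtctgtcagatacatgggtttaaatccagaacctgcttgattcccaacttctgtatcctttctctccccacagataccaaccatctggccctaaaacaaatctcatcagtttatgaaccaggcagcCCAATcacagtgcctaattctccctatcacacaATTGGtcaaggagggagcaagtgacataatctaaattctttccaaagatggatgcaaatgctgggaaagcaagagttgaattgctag
LINC01426: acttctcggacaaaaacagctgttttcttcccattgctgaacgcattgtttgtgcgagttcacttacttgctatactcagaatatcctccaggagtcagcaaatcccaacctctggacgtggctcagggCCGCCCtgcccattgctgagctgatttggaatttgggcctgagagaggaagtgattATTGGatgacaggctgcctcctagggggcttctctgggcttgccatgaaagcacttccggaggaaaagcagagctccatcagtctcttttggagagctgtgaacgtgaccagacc
LINC02970: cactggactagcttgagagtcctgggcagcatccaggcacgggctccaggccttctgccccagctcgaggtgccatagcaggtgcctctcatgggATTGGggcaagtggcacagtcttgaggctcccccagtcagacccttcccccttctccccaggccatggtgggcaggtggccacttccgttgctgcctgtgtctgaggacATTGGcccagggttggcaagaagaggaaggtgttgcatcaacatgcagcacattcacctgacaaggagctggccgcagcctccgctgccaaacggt
LINC00261: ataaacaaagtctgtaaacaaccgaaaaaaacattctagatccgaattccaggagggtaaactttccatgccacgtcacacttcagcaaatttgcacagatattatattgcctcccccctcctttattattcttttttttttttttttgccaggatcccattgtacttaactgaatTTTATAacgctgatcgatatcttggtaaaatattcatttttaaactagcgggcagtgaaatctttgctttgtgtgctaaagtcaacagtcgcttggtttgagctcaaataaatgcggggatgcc

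In RefSeq, 1498 of the 2270 members outside the Y copy of the pseudoautosomal region had a promoter under the same symbol, and for 912 of them its start lay within 100 bases of the start used in the counting. The GC box was found in 18.7% of 1649 LINC promoters and in 45.0% of all 35116 promoters. The AP-1 motif was found in 13.6% of LINC promoters against 7.71% of all, the TATA box in 16.6% against 11.5%, the NF-Y pentamer in 36.5% against 34.6%, the E-box in 5.09% against 7.26% and the CRE in 1.03% against 1.85%. Median GC content was 47.7% in LINC promoters and 58.7% in all promoters. A match describes letters in the window and not a bound site.

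Across the 12 libraries, 18300628 to 23724398 read pairs were assigned to genes. ZMYND8 itself stood at 208 and 209 CPM in GFP cells at 0 h and at 921 and 926 CPM in ZMYND8 cells at 0 h, in the direction of the labels. Summed levels of 10 mesenchymal and basal markers were 8392 to 9580 CPM at 0 and 6 h and 4765 to 5410 CPM at 48 h. Between the lines at 0 h 1 of the 10 was called, SPARC, a matrix glycoprotein, which had a mean of 163 CPM in GFP cells and 1.17 CPM in ZMYND8 cells at 0 h. Of 10 luminal markers, PGR and FOXA1 had at most 3 counts at 0 h in both lines, and the mean level of CDH1 (E-cadherin) went from 0.720 to 10.7 CPM in GFP cells and from 4.16 to 20.8 CPM in ZMYND8 cells between 0 and 48 h. The summed level of 8 blood and endothelial markers was 18.1 to 27.7 CPM in GFP cells and 3.40 to 7.88 CPM in ZMYND8 cells, with HBB at 3 counts or fewer in every library. The part of these differences in the results on LINC genes was not tested.

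Detection of LINC genes was sparse at 0 h and widened at 48 h of doxorubicin. At least 10 counts in both libraries were found for 222, 193 and 296 LINC genes in GFP cells at 0, 6 and 48 h, and for 202, 182 and 294 in ZMYND8 cells. At least 1 count in both libraries was found for 470 LINC genes in GFP cells at 0 h (20.7% of 2274), 428 at 6 h and 994 at 48 h (43.7%). In ZMYND8 cells the numbers were 491, 434 and 946 (41.6% at 48 h). At this lower minimum the number at 48 h was 2.11 times that at 0 h in GFP cells and 1.93 times in ZMYND8 cells, while at 6 h it was 0.911 and 0.884 times that at 0 h.

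The gain at 48 h thus lay mostly in genes with a few counts. The deepest of the 12 libraries was a ZMYND8 library at 0 h, and it held at least 1 count for 623 LINC genes, against 1185 to 1281 in each library at 48 h.

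The same ratio of 48 h to 0 h at 1 count was 1.27 in GFP and 1.26 in ZMYND8 cells over all genes. For protein-coding genes it was 1.18 and 1.16, for 1848 antisense genes 1.29 and 1.27, for 12601 other lncRNA genes 1.49 and 1.48, and for 10131 processed pseudogenes 1.36 and 1.41. LINC genes had the highest ratio of the 5 classes in both lines. Olfactory receptor genes, which are largely silent outside sensory neurons and serve as a gauge of scattered counts, went the same way. Of 416 such genes, 11, 6 and 73 had at least 1 count in both libraries of GFP cells at 0, 6 and 48 h, and 11, 4 and 39 in ZMYND8 cells. At most 2 of the 416 reached 10 counts in both libraries of any condition. The part of such scattered counts in the wider detection was not tested.

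**Figure D1:**
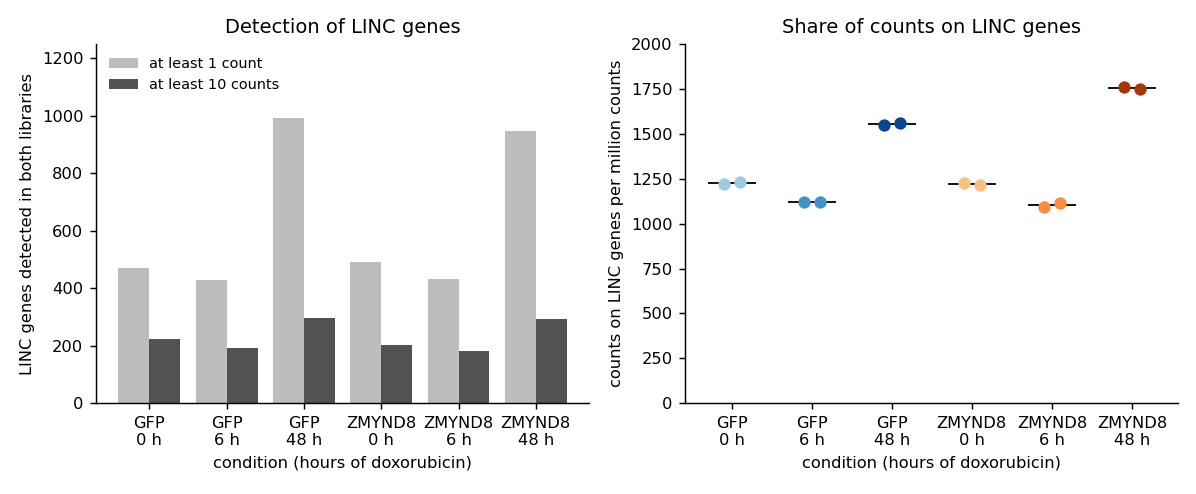
Left, number of LINC genes (of 2274) with at least 1 and at least 10 counts in both libraries of each condition; right, counts on LINC genes per 1000000 counts, 1 point per library. Both 48 h conditions stand above the 0 and 6 h conditions, with 994 and 946 genes at 1 count or more.

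LINC genes that were silent in untreated GFP cells give the size of the change in counts. A set of 1603 LINC rows had 0 counts in both GFP libraries at 0 h, a choice that fixes their level there. Their summed counts were 96 and 84 in GFP cells at 6 h and 1820 and 1807 at 48 h. In ZMYND8 cells they were 310 and 379 at 0 h, 266 and 301 at 6 h, and 2036 and 1783 at 48 h. The ZMYND8 libraries at 0 h, which the choice did not use, lay at 17.3 and 16.6 CPM for this sum and those at 48 h at 82.7 and 75.8 CPM. In the 48 h libraries the counts were spread over 587 to 671 of the 1603 rows.

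Some LINC genes were seen at 48 h alone. A count of 0 in all 8 libraries of 0 and 6 h and at least 1 count in all 4 libraries of 48 h was found for 103 LINC genes, and the reverse for 0. Neither this pattern nor the stricter one below was counted over all genes. Genes of any class with at least 1 count in both libraries also became more numerous between 0 and 48 h. They went from 20931 to 26649 in GFP cells and from 21159 to 26668 in ZMYND8 cells. At most 3 counts in each of the 8 and at least 10 in each of the 4 were found for 6 genes, and the reverse for 0. These were LINC01363, LINC03025, LINC00703, LINC01476, LINC02940 and LINC00052, which were named after their values were seen. LINC01476 (ENSG00000265313.7, chr17:59422088-59526946, minus strand, GRCh38) had 0 counts in all 8 libraries of 0 and 6 h, 23 and 24 in GFP cells at 48 h, and 17 and 18 in ZMYND8 cells at 48 h. LINC00052, a transcript described in breast cancer, had 0 to 3 counts in the 8 libraries, 11 and 10 in GFP cells at 48 h and 17 and 32 in ZMYND8 cells at 48 h. None of the 6 had exons overlapping a gene on the other strand.

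The share of all counts that fell on LINC genes rose from 1226 ± 5.85 per 1000000 counts (SD, n = 2) in GFP cells at 0 h to 1554 ± 9.89 at 48 h, and was 1121 ± 0.371 at 6 h. In ZMYND8 cells it was 1221 ± 8.80 at 0 h, 1105 ± 14.8 at 6 h and 1753 ± 7.49 at 48 h. The ranges of the conditions at 48 h overlapped with neither those at 0 h nor those at 6 h. The difference of 48 h from 0 h was 327 per 1000000 in GFP cells and 532 in ZMYND8 cells, each at p = 0.333 in a two-sided exact permutation test, the smallest p that 2 against 2 allows. Over both lines, with labels permuted within each, it was 430 at p = 0.0556 in the exact permutation test, again the smallest possible. Counted over LINC genes without exon overlap alone, the difference was 222 in GFP cells and 271 in ZMYND8 cells. Mitochondrial genes also took a larger share at 48 h, from 0.893% and 0.947% of counts at 0 h to 1.66% and 1.70% in GFP cells, and from 1.29% and 1.96% to 3.01% and 2.73% in ZMYND8 cells. With mitochondrial counts left out of the total, the difference was 343 and 563. The 10 LINC genes with most counts over all 12 libraries together held 21.5% to 36.9% of the LINC counts of each library.

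Per kilobase of exon, the mean level over the 12 libraries was highest for LINC00973 at 34.4 CPM per kb, followed by LINC03061 at 21.0, LINC03033 at 14.5, LINC00674 at 13.1 and LINC01116 at 9.88. LINC00674 is annotated as a transcribed pseudogene, and exons of LINC03033 overlap genes on both strands, so reads of related or overlapping genes may be counted with them or lost. LINC00973 held 16.9 and 15.7 CPM in GFP cells at 0 h, 31.8 and 32.8 at 48 h, 34.4 and 33.8 in ZMYND8 cells at 0 h, and a mean of 59.6 ± 0.55 (SD, n = 2) at 48 h. It was thus higher at 48 h in each line and higher in ZMYND8 cells at each time, with no overlap between these groups. On the log2 scale these differences were 0.99 ± 0.082 (SE, adjusted p = 1.7e-16, GFP cells at 48 h) and 1.06 ± 0.083 (adjusted p = 1.4e-17, lines at 0 h) in the edgeR quasi-likelihood test (Benjamini-Hochberg over all tested genes), below the fold threshold used for calls.

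For tests of single genes, edgeR's quasi-likelihood test was fitted over all 18801 genes that passed a filter on low counts, and calls required an adjusted p of at most 0.05 together with a log2 fold change of 1.5 or more in either direction. Of the LINC rows 389 passed the filter (17.1%, against 31.02% of all rows), and 1885 did not. A LINC gene can pass through a single condition in which it is high, and such a gene had to differ. The share of all tested genes called in the same direction is given beside counts of calls. It does not remove this effect, since 14050 of the 18801 tested genes are protein-coding, a class with fewer low counts. How far the filter shapes these contrasts was not tested. The number of called LINC genes with 3 counts or fewer in every library of one group is given for the same reason. Over all tested genes, neither this number nor that of the remaining calls was computed.

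At 48 h of doxorubicin most called LINC genes were higher. In GFP cells 91 were called higher (23.4% of 389, against 9.94% of all tested genes) and 14 lower (3.60%, against 3.01%). In ZMYND8 cells 100 were higher (25.7%, against 9.72%) and 12 lower (3.08%, against 2.22%). Of the genes called in either direction, 55 in GFP cells and 50 in ZMYND8 cells had 3 counts or fewer in each library of one group. Of these, 53 and 48 were called higher. Among those with more counts in both groups, 38 were higher and 12 lower in GFP cells, and 52 and 10 in ZMYND8 cells. For comparison, 12.7% of tested other lncRNA genes, 9.75% of antisense genes and 9.46% of protein-coding genes were called higher in GFP cells, and 14.6%, 11.7% and 8.74% in ZMYND8 cells. The median log2 fold change of the 389 was 0.41 in GFP and 0.55 in ZMYND8 cells, against 0.03 and 0.05 over all tested genes. Without the filter the median over 39998 genes was 0.21 in each line, and that of LINC genes was not computed.

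The 2 lines shared many of these calls, and their 48 h comparisons use no common library. LINC genes called higher in both numbered 69, which is 75.8% of those in GFP cells and 69% of those in ZMYND8 cells. Over all tested genes 1214 were higher in both, 65.0% and 66.4% of those called in each line. Lower in both were 5 LINC genes, 35.7% of those called lower in GFP cells and 41.7% of those in ZMYND8 cells. Over all tested genes 211 were lower in both, 37.3% and 50.6% of those called in each line. In opposite directions 1 LINC gene was called, LINC02966. Across 191 LINC genes with an average level of at least 1 CPM, the log2 fold changes of the lines had a Pearson's r of 0.66, a description over genes, which are not independent replicates. Of the 69 genes, 31 had 3 counts or fewer in all 4 libraries at 0 h and 12 had more than 3 in all of them. Their mean level at 48 h was 0.309 to 10.9 CPM with a median of 0.871 CPM.

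**Figure D2:**
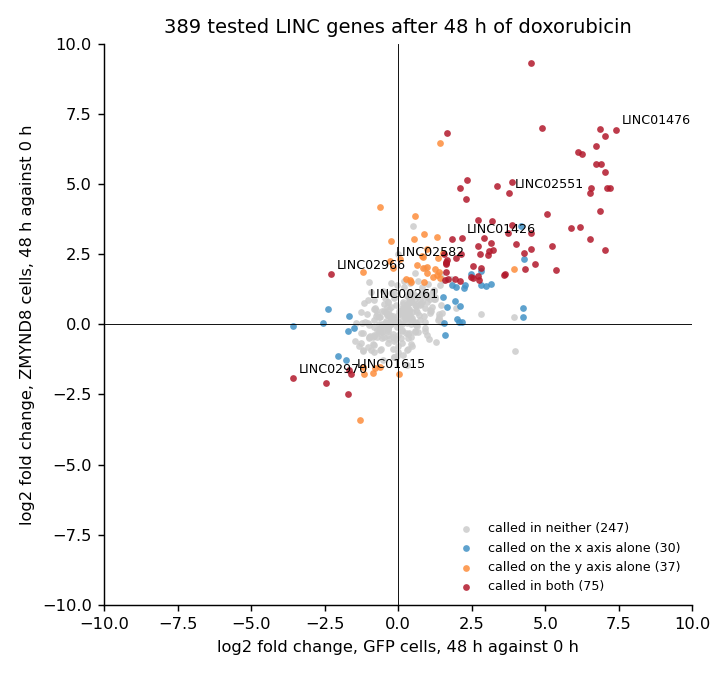
Log2 fold change of 48 h against 0 h of doxorubicin in GFP cells (x axis) and ZMYND8 cells (y axis) for the 389 tested LINC genes, 1 point per gene, coloured by the comparison in which it was called. Of the 75 called on both axes, 69 lie in the upper right quadrant, 5 in the lower left, and LINC02966 alone in the upper left.

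LINC02551 (ENSG00000254842.6, chr11:130844191-130865561, minus strand) rose at both times in both lines. Its counts were 7 and 4 at 0 h, 24 and 27 at 6 h, and 80 and 103 at 48 h in GFP cells, and 1 and 3, 16 and 12, and 81 and 48 in ZMYND8 cells. The 3 times did not overlap in either line. The log2 fold change in GFP cells was 2.23 ± 0.46 at 6 h (SE, adjusted p = 3.7e-05) and 3.77 ± 0.39 at 48 h (adjusted p = 7.1e-13). In ZMYND8 cells, taken against the limit of 3 counts per library, it was at least 4.75-fold higher at 6 h (adjusted p = 1.9e-04) and at least 17.9-fold higher at 48 h (adjusted p = 1.2e-12).

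LINC01426, whose promoter is shown above, lies on chromosome 21, 2.92 kb from RUNX1 on the opposite strand, which encodes a transcription factor of blood and epithelial cells. It had 66 and 70 counts in GFP cells at 0 h, 53 and 40 at 6 h and 347 and 382 at 48 h. In ZMYND8 cells it had 14 and 15, 15 and 22, and 152 and 137. The level at 48 h stood above every library of 0 and 6 h of the same line, and GFP cells were higher than ZMYND8 cells at each time. The rise at 48 h was 2.16 ± 0.17 on the log2 scale in GFP cells (adjusted p = 4.3e-17) and 3.06 ± 0.25 in ZMYND8 cells (adjusted p = 4.5e-17), while RUNX1 changed by -0.59 and -0.19.

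LINC00707 and LINC00520, both described in several carcinomas, also rose in both lines from a level that was higher in ZMYND8 cells. LINC00707 had 26 and 19 counts in GFP cells at 0 h and 169 and 193 at 48 h, against 72 and 106 and then 324 and 299 in ZMYND8 cells. LINC00520 had 2 and 9 counts and then 49 and 29 in GFP cells, against 23 and 22 and then 128 and 100 in ZMYND8 cells. Within each line the libraries of 0 and 48 h did not overlap, and at each of these times the lines did not overlap. The rises were 2.74 ± 0.21 and 1.57 ± 0.16 on the log2 scale for LINC00707 in GFP and ZMYND8 cells (adjusted p = 9.2e-18 and 5.5e-13), and 2.55 ± 0.46 and 2.08 ± 0.32 for LINC00520 (adjusted p = 2.3e-06 and 7.4e-08). Without the first ZMYND8 library at 0 h the rise of LINC00707 in ZMYND8 cells was 1.45, under the threshold, and without the first GFP library at 0 h the difference of LINC00520 between the lines at 0 h was 1.22 and not called. Exons of LINC00707 overlap another gene on the same strand.

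LINC02901 and LINC02321 were among the largest rises of GFP cells. LINC02901 had 2 and 3 counts in GFP cells at 0 h and 64 and 56 at 48 h, at least 16.7-fold higher, and 5 and 5 against 28 and 42 in ZMYND8 cells. LINC02321 had 6 and 10 counts against 80 and 103 in GFP cells, and 5 and 13 against 77 and 57 in ZMYND8 cells. Both genes were higher in each 48 h library than in any library of 0 or 6 h.

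Of the 5 LINC genes called lower at 48 h in both lines, LINC02970 had 113 and 98 counts in GFP cells at 0 h, 28 and 22 at 6 h and 9 and 12 at 48 h, and 34 and 50, 15 and 12, and 13 and 13 in ZMYND8 cells. In GFP cells the 3 times did not overlap, and in ZMYND8 cells 0 h stood above both later times, which overlapped in counts. It fell by 2.04 at 6 h and 3.57 at 48 h on the log2 scale in GFP cells (SE 0.28 and 0.33, adjusted p = 1.0e-08 and 5.8e-15), and by 1.57 and 1.91 in ZMYND8 cells (SE 0.34 and 0.35, adjusted p = 1.2e-04 and 2.5e-06). The call at 6 h in ZMYND8 cells was lost without the second library of either time, with log2 fold changes of -1.46 in both fits.

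LINC01615 went from 353 and 384 counts in GFP cells at 0 h to 236 and 228 at 6 h and 135 and 155 at 48 h. In ZMYND8 cells it went from 504 and 533 to 382 and 370 and to 164 and 198. Its level thus stepped down at each time in both lines, and it fell by 1.61 ± 0.12 and 1.77 ± 0.11 at 48 h on the log2 scale (adjusted p = 1.8e-18 and 1.5e-21). LINC02487 fell by 1.71 and 2.49 in GFP and ZMYND8 cells (adjusted p = 2.1e-07 and 9.2e-06), from 98 and 112 counts to 36 and 41 in the former and from 20 and 24 to 7 and 2 in the latter. With scaling to total counts both genes were under the threshold in GFP cells, at -1.36 for LINC01615 and -1.46 for LINC02487.

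At 6 h fewer LINC genes were called, and more of them were lower. In GFP cells 10 were higher (2.57%, against 1.22% of all tested genes) and 31 lower (7.97%, against 2.90%), and in ZMYND8 cells 3 were higher (0.771%, against 0.495%) and 15 lower (3.86%, against 1.48%). DESeq2 called 26 and 10 in all, against the 41 and 18 of edgeR. With more than 3 counts in both groups, 6 were higher and 19 lower in GFP cells, and 1 and 7 in ZMYND8 cells. Lower in both lines were 4 genes, 12.9% of those in GFP cells and 26.7% of those in ZMYND8 cells. The matching shares over all tested genes were not computed for 6 h. The median log2 fold change of tested LINC genes was -0.22 and -0.21, against -0.05 and -0.01 over all tested genes.

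LINC01411 was lower at 6 h in both lines. It had 195 and 197 counts in GFP cells at 0 h, 56 and 71 at 6 h and 112 and 146 at 48 h, and 64 and 76, 19 and 24, and 20 and 30 in ZMYND8 cells. It fell by 1.59 ± 0.20 and 1.65 ± 0.26 on the log2 scale at 6 h (adjusted p = 3.9e-10 and 3.9e-07), and without the first 6 h library of the line by 1.41 and 1.44, under the threshold. In GFP cells the 48 h libraries lay between those of 0 and 6 h, and in ZMYND8 cells those of 6 and 48 h overlapped. LINC00452 and LINC00240 were called higher at 6 h in GFP cells. LINC00452 went from 34 and 49 counts to 139 and 131 there, a log2 fold change that was 1.47 and under the threshold without the first GFP library at 0 h, and from 60 and 82 to 108 and 98 in ZMYND8 cells, where its log2 fold change of 0.59 was below the threshold.

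The lines differed in many LINC genes before doxorubicin. At 0 h 43 LINC genes were higher in ZMYND8 than in GFP cells (11.1%, against 3.93% of all tested genes) and 67 were lower (17.2%, against 6.88%). At 48 h 41 were higher (10.5%, against 3.62%) and 44 lower (11.3%, against 5.59%). Of the calls at 0 h 38 had 3 counts or fewer in each library of one line, and with more counts in both lines 23 were higher and 49 lower. Comparisons at 0 and 48 h share no library. Higher at both times were 20 genes, 46.5% of those at 0 h and 48.8% of those at 48 h, and lower at both were 31, 46.3% and 70.5%, with 0 in opposite directions. Over all tested genes 364 were higher at both times, 49.3% and 53.5% of those called at each, and 674 were lower, 52.1% and 64.1%. Across the same 191 LINC genes the log2 differences of the 2 times had a Pearson's r of 0.82.

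**Figure D3:**
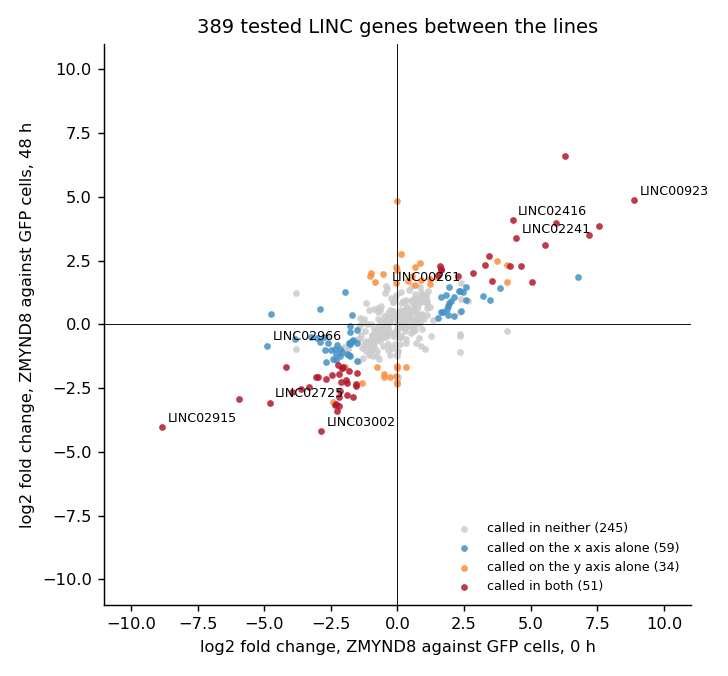
Log2 fold change of ZMYND8 against GFP cells at 0 h (x axis) and at 48 h (y axis) for the 389 tested LINC genes, 1 point per gene, coloured by the comparison in which it was called. All 51 genes called at both times lie in the upper right (20) or lower left (31) quadrant.

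LINC00923 (ENSG00000251209.9, chr15:97572185-97875650, minus strand) was detected almost only in ZMYND8 cells. It had 0 counts in each GFP library at 0 and 6 h and 1 and 4 at 48 h, against 51 and 63, 38 and 38, and 93 and 68 in ZMYND8 cells at 0, 6 and 48 h. The lines did not overlap at any time. ZMYND8 cells were at least 18.1-fold higher at 0 h (adjusted p = 4.1e-14), and its log2 fold change at 48 h was 4.88 ± 0.47 (adjusted p = 5.8e-14). Its exons overlap a gene on the other strand.

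LINC02241, whose promoter is shown above, spans chr5:20611806-20937800 on the plus strand, and its exons overlap a gene on the other strand. It had 10 and 3 counts in GFP cells at 0 h, 6 and 8 at 6 h and 4 and 11 at 48 h, and 116 and 192, 124 and 117, and 87 and 77 in ZMYND8 cells. Every ZMYND8 library stood above every GFP library, by 4.45 ± 0.33 on the log2 scale at 0 h (adjusted p = 1.3e-18) and 3.37 ± 0.34 at 48 h (adjusted p = 3.5e-13). The nearest tested gene, CDH18, encodes a cadherin and lies 35.9 kb away on the opposite strand. CDH18 had 0 and 2 counts in GFP cells and 30 and 25 in ZMYND8 cells at 0 h, and 3 and 6 against 26 and 28 at 48 h, so both genes were higher in ZMYND8 cells.

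LINC02416 and LINC01088 were also higher in ZMYND8 cells. LINC02416 had 0 to 9 counts in GFP libraries, against 19 and 28 in ZMYND8 cells at 0 h and 161 and 159 at 48 h. It was at least 7.37-fold higher at 0 h (adjusted p = 3.0e-08) and differed by 4.08 ± 0.33 on the log2 scale at 48 h (adjusted p = 6.8e-17). LINC01088 had 2 to 11 counts in GFP libraries and 30 to 69 in ZMYND8 libraries. LINC03061, of much higher level, had 48.2 and 44.8 CPM in GFP cells at 0 h against 155 and 174 CPM in ZMYND8 cells, a log2 difference of 1.83 ± 0.064 (adjusted p = 1.4e-19).

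LINC02915, whose promoter held none of the motifs searched, was detected almost only in GFP cells. It had 67 and 39 counts there at 0 h, 40 and 51 at 6 h and 39 and 44 at 48 h, against 0 and 0, 2 and 1, and 3 and 2 in ZMYND8 cells. ZMYND8 cells were at least 18.2-fold lower at 0 h (adjusted p = 9.4e-14) and at least 14.4-fold lower at 48 h (adjusted p = 8.7e-10). LINC02725 had 82 and 82 counts in GFP cells at 0 h and 75 and 90 at 48 h, against 2 and 4 and then 10 and 10 in ZMYND8 cells, with no overlap between the lines. Its log2 differences were -4.79 ± 0.41 and -3.08 ± 0.33 (adjusted p = 5.1e-16 and 1.8e-12). LINC00963, first described in prostate cancer, was lower at a higher level, at 47.6 and 48.7 CPM in GFP cells at 0 h against 10.8 and 11.7 CPM in ZMYND8 cells, a log2 difference of -2.09 ± 0.087 (adjusted p = 2.0e-30). Exons of LINC00963 overlap a gene on the other strand.

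Untreated MDA-MB-231 cells served as controls of a separate transient transfection experiment, sequenced at 5858550 and 5904185 counts. Of the 20 LINC genes higher in ZMYND8 cells at 0 and 48 h, 9 had at least 1 count in both of these libraries and 7 had 0 in both. Of the 31 lower in ZMYND8 cells, 23 had at least 1 count in both and 3 had 0. LINC00923 had 1 and 0 counts there. No test was made between tables counted separately.

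**Figure D4:**
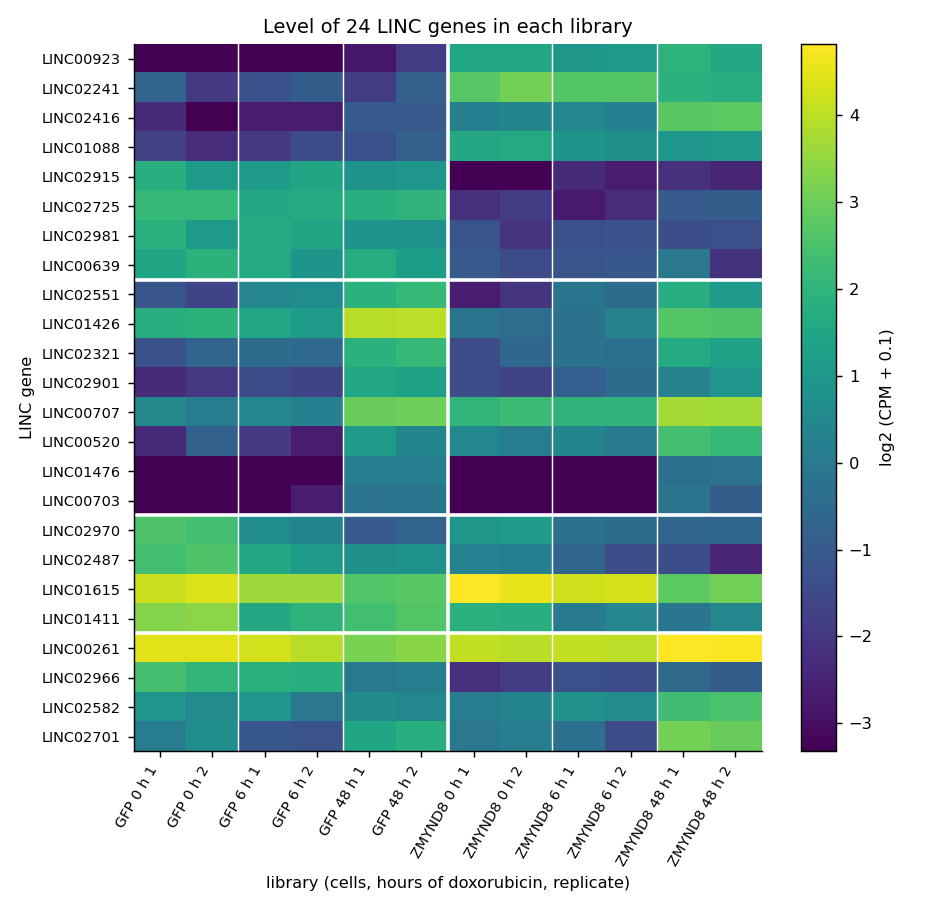
Level of 24 named LINC genes (rows) in the 12 inducible libraries (columns), as log2 of CPM plus 0.1. The groups of rows hold genes that differed between the lines, rose at 48 h, fell at 48 h, or changed differently in the lines. Replicates of low-count genes can lie apart, as for LINC00639 in ZMYND8 cells at 48 h (21 and 3 counts) and LINC00520 in GFP cells at 0 h (2 and 9).

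The response to 48 h of doxorubicin differed between the lines for 21 LINC genes, by a test of the interaction (the log2 fold change in ZMYND8 cells minus that in GFP cells). The difference was positive for 19 (4.88%, against 1.33% of all tested genes) and negative for 2 (0.514%, against 0.941%). DESeq2 called 11. The median interaction of the 389 was 0.14 on the log2 scale, against -0.01 over all tested genes.

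LINC00261, which lies beside FOXA2 and is expressed with it in endoderm-derived tissues, fell in one line and rose in the other. It stood at 22.0 and 21.6 CPM in GFP cells at 0 h, 18.9 and 15.1 at 6 h and 9.05 and 10.3 at 48 h. In ZMYND8 cells it stood between 15.7 and 16.6 CPM in all 4 libraries of 0 and 6 h, and at 27.9 and 26.6 CPM at 48 h. At 48 h the lines thus lay on opposite sides of all libraries of 0 h. It fell by 1.17 ± 0.10 on the log2 scale in GFP cells (adjusted p = 3.2e-15) and rose by 0.76 ± 0.095 in ZMYND8 cells (adjusted p = 3.4e-10), each below the fold threshold, and the interaction was 1.92 ± 0.14 (adjusted p = 1.8e-17).

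FOXA2, a forkhead transcription factor, lies 2.36 kb from LINC00261 on the same strand. It had 632 and 627 counts in GFP cells at 0 h and 412 and 461 at 48 h, against 844 and 1130 and then 1077 and 1061 in ZMYND8 cells. It changed by -0.79 in GFP cells and by -0.12 in ZMYND8 cells (adjusted p = 0.117 for the latter), with an interaction of 0.67 (adjusted p = 5.4e-07). The interaction of both genes was thus positive, and FOXA2 did not pass the test in ZMYND8 cells, where LINC00261 rose.

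LINC02966 had 103 and 74 counts in GFP cells at 0 h, 68 and 64 at 6 h and 20 and 23 at 48 h, against 2 and 4, 6 and 5, and 15 and 10 in ZMYND8 cells. It had fewer counts in ZMYND8 cells at every time, and the gap narrowed at 48 h from both sides. It fell by 2.29 ± 0.30 on the log2 scale in GFP cells (adjusted p = 1.2e-09) and rose by 1.78 ± 0.58 in ZMYND8 cells (adjusted p = 0.0065), with an interaction of 4.07 ± 0.64 (adjusted p = 6.1e-07). The rise in ZMYND8 cells rests on few counts and was lost without 1 library, with a log2 fold change of 1.51 and an adjusted p of 0.0592 without the first ZMYND8 library at 0 h, and of 1.49 without the first at 48 h.

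LINC02582 and LINC02701 responded more strongly in ZMYND8 cells. LINC02582 had 36 and 27 counts in GFP cells at 0 h and 31 and 31 at 48 h, against 18 and 27 and then 122 and 131 in ZMYND8 cells, an interaction of 2.53 ± 0.43 (adjusted p = 2.4e-06). LINC02701 had 19 and 28 and then 61 and 81 counts in GFP cells, against 15 and 23 and then 213 and 177 in ZMYND8 cells, an interaction of 1.79 ± 0.42 (adjusted p = 5.6e-04) that was 1.45, under the threshold, without the second GFP library at 0 h. At 48 h every ZMYND8 library stood above every GFP library for both genes, and at 0 h no higher level was seen in ZMYND8 cells.

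Position and structure of the called genes were compared without a test. The 69 LINC genes higher at 48 h in both lines lay on 20 chromosomes, had a median exonic length of 2888 bases in 5 blocks, and 20.3% of them overlapped a gene on the other strand. All 389 tested had 3148 bases, and 30.3% overlapped. Those called in no comparison numbered 158, and 41.8% of them overlapped a gene on the other strand. The nearest tested gene lay within 50 kb for 48 of the 69, and 11 of these neighbours (22.9%) were also called higher at 48 h in both lines, against 12 of 258 (4.65%) for other tested LINC genes and 6.46% of all tested genes. For the 31 genes lower in ZMYND8 cells at both times it was 7 of 26 (26.9%), against 10 of 280 (3.57%) for other tested LINC genes. Of the 11 neighbours, 8 were themselves among the 69 genes, so that each gene of a pair counted for the other, as with LINC01291 and LINC01293, which lie 1.84 kb apart. Among the 40 genes of the 48 whose neighbour was not one of the 69, 3 neighbours (7.5%) were called higher in both lines. Of the 7 neighbours in the second set 3 were themselves members of it, and 4 of the other 23 (17.4%) were called lower at both times. These 3 include both rows with the symbol LINC01605, whose spans overlap on the same strand. Each of these rows counted as the neighbour of the other, and the 31 genes hold this symbol more than once.

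Among 22 LINC names that appear often in studies of breast and other cancers, chosen with earlier results of these data known, 17 were found by symbol and 14 were tested. Higher at 48 h in each line were 3 of the 14, namely LINC00520, LINC00707 and LINC00052, and 0 were lower. Of all 389 tested LINC genes, 23.4% in GFP cells and 25.7% in ZMYND8 cells were called higher. Over all tested genes it was 9.94% and 9.72%. Between the lines at 0 h, 3 were higher in ZMYND8 cells and 1, LINC00963, was lower, and at 48 h 0 were called in either direction. The shares at 0 h were 11.1% higher and 17.2% lower over tested LINC genes, and 3.93% and 6.88% over all tested genes. At 6 h 0 of the 14 were called in either line. The interaction was called positive for 1, LINC00261, against 4.88% of tested LINC genes and 1.33% of all tested genes. LINC00511 fell by 1.03 ± 0.0805 on the log2 scale at 6 h in GFP cells (adjusted p = 2.6e-17), below the fold threshold, from 838 and 830 counts to 417 and 379.

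Of 22 other lncRNAs without a LINC number, such as MALAT1, NEAT1 and H19, 19 were tested. At 48 h 1 was called higher and 1 lower in GFP cells (9.94% and 3.01% of all tested genes). In ZMYND8 cells it was 0 and 1 (9.72% and 2.22%). Between the lines 4 were higher and 1 lower in ZMYND8 cells at 0 h (3.93% and 6.88% of all tested genes), and 4 and 2 at 48 h (3.62% and 5.59%).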

How the data were processed

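Total RNA was poly(A)-selected and sequenced from 12 inducible libraries (6 conditions, 2 replicates each), and 6 transient libraries were used for detection only. The authors deposited unnormalised gene counts, in which a read pair counts once, and which the file headers credit to featureCounts 1.6.4, run on GENCODE release 31 exons as a reverse-stranded library. The aligner is TopHat in the study's methods and HISAT2 in the submitters' processing notes, on hg38. Low-level genes such as these are affected by how an aligner treats pairs with several matches. Symbols and biotypes came from GENCODE release 44 by gene identifier, so genes whose LINC symbol was replaced since release 31 are not among the members.

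Deposited counts were filtered with filterByExpr, scaled by TMM and fitted with edgeR 4.0.16 in R 4.3.3 (quasi-likelihood, all 6 conditions in one fit), with Benjamini-Hochberg adjustment over 18801 genes. CPM are counts per 1000000 of TMM-scaled totals. Intervals between libraries cover 2 replicates only. A fold against a group at 3 counts or fewer in each library was computed against 3 counts per library. The script was tested on simulated data. Members and lists were chosen with earlier results of these data known.

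Genes named are, per comparison, at most 5 rises and 5 falls of largest log2 fold change among called LINC genes with an average level of at least 1 CPM and libraries that did not overlap (overlap was allowed for the interaction), the 10 of highest level per kilobase, and the listed LINC genes and lncRNAs. Neighbours, strand partners, LINC01476, LINC01764, LINC01291, LINC01293 and LINC01605 were named after their values were seen. Alternatives were DESeq2 1.42.0, other scalings, no filter, other thresholds, only the compared libraries, a replicate block, no exon overlap, and leaving out each replicate. Tables were handled in Python 3.11.15 with pandas 2.3.3.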

Additional observations from a re-analysis of the deposited data

Results flagged for a closer look

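The change at 48 h of doxorubicin differed between the lines, by the interaction test of edgeR, for 9 of the LINC genes named, given as the log2 change in ZMYND8 cells minus that in GFP cells. It was 1.92 for LINC00261, 2.53 for LINC02582, 4.07 for LINC02966, 1.79 for LINC02701 (1.45, under the threshold, without the second GFP library at 0 h), 2.09 for LINC01089 and 1.66 for LINC02970 (not called without the first GFP library at 48 h, adjusted p = 0.0520). It was 4.81 for LINC02915, 1.72 for LINC02725 and -1.91 for LINC01088, which rest on 0 to 11 counts per library in the low line. Those 3 did not pass by DESeq2, with adjusted p of 0.0677, 0.118 and 0.102. Exons of LINC01089 overlap genes on both strands.

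The transient transfection libraries take no part in the comparisons. The shallower doxorubicin library there had 544 LINC genes with at least 1 count at 5729294 counts in all, against 487 and 472 in the untreated controls at 5858550 and 5904185 counts. Counts on LINC genes per 1000000 were 1968 and 1945 with doxorubicin, against 2130 and 1822 without, so the share lay between the controls while the number of genes in the shallower library lay above both.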

How the results depend on the processing

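Counts of called LINC genes stayed within 1.5 times under most alternatives. They left that range at 6 h in GFP cells (41 called), with 70 at a log2 fold threshold of 1, 27 from only the libraries compared and 26 by DESeq2. At 6 h in ZMYND8 cells (18 called) they were 31 with unadjusted p, 34 at a log2 fold of 1, 10 from only the libraries compared and 10 by DESeq2. For the interaction (21 called) they were 37 with unadjusted p, 38 at a log2 fold of 1 and 11 by DESeq2. At 48 h in GFP cells (105 called) no filter on low counts gave 169, from 1819 LINC genes tested, 72 of them in rows that the filter leaves out. Against detection at 10 counts in both libraries, at 1 count it was 470, 428 and 994 in GFP cells at 0, 6 and 48 h and 491, 434 and 946 in ZMYND8 cells, and at 4 counts it moved to 481 in GFP cells at 48 h and to 305 and 452 in ZMYND8 cells at 0 and 48 h.

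Leaving out 1 library in turn gave 106 to 108 calls at 48 h and 29 to 37 at 6 h in GFP cells, 93 to 102 and 13 to 19 in ZMYND8 cells, 97 to 110 and 70 to 87 between the lines at 0 and 48 h, and 16 to 21 for the interaction. Detection at 10 counts in a single library was 245 in both, 207 to 217 and 335 to 340 in GFP cells at 0, 6 and 48 h, and 215 to 246, 200 to 208 and 321 to 337 in ZMYND8 cells. The share difference was 320 to 334 per 1000000 counts in GFP cells, 525 to 538 in ZMYND8 cells and 426 to 433 in both. A lone library is then assumed to vary like the others.

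With the replicate number as a block, calls were 109 and 84 between the lines at 0 and 48 h, 41 and 103 in GFP cells at 6 and 48 h, 18 and 110 in ZMYND8 cells, and 20 for the interaction. The labels do not say whether libraries of the same number were paired. Deviations of same-numbered libraries correlated between -0.102 and 0.0273, so no shared shift was seen. Scaling to total counts moved the median of all genes at 48 h to 0.27 and 0.25 on the log2 scale in GFP and ZMYND8 cells, with 107 LINC genes higher and 8 lower and with 118 and 8. Of 126 called values of named genes, 93 kept their call in every setting run for them and 0 changed sign. Leaving out 1 library lost 31 in at least 1 fit, DESeq2 lost 9, total counts 3 and the block 0. Most LINC genes had under 10 counts, and the 1885 rows under the filter were tested only without it.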

Other observations

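Of the 69 LINC genes higher at 48 h in both inducible lines, 28 had at least 1 count in both untreated transient libraries and 25 had 0 in both, at 5858550 and 5904185 counts in all. LINC00355 had 0 counts in GFP cells at 0 and 6 h, 2 and 3 at 48 h, and 11 to 38 in ZMYND8 libraries. LINC02882, whose exons overlap a gene on the other strand, had 10 to 18 counts in GFP libraries and 1 to 3 in ZMYND8 libraries. Both genes were picked after their values were seen, since they and LINC02915 alone reached 10 counts throughout one line while staying at 3 or fewer throughout the other.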
